A study of Mus musculus with 6 samples.

Results

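COPI, COPII and Golgi structure genes encode the coats, tethers, receptors and scaffolds that move newly made proteins between the endoplasmic reticulum and the Golgi and onward to the granules. The set holds 59 genes chosen by name, each read on its brightest probe set (by mean log2 value over 6 arrays) among those annotated with a single gene symbol. All 59 had such a probe set, out of 18193 genes in all. They were described in 7 groups: the COPI coat with its ARF GTPases and ARFGAP proteins (14 genes), the COPII coat (11), cargo and retrieval receptors (6), Golgi SNAREs and tethers (8), golgins and stacking proteins (8), the COG complex (5), and AP-1 and GGA adaptors (7).

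Islets were taken from mice of 8 weeks whose background was mixed (SV 129/C57BL/6). The group labelled knockout, Pdx1Cre;PPARbetafl/fl, carried floxed Ppar-beta alleles (gene symbol Ppard) and a Cre transgene under the promoter of Pdx1, a gene that is on throughout the developing pancreas and not in beta cells alone. Control littermates, PPARbetafl/fl, carried the same floxed alleles without Cre. There were 3 animals per group, each on 1 array. No Cre-positive animals with unfloxed alleles were analysed here, so the deletion and the transgene cannot be told apart. The labels call the sample beta-cells, while the protocol isolates whole islets with collagenase and a Histopaque gradient.

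COPII-coated vesicles carry folded cargo out of the endoplasmic reticulum, and COPI-coated vesicles return receptors and escaped resident proteins and act within the Golgi. Golgins, GRASP proteins and the COG complex tether vesicles and hold the stack together, and AP-1 with the GGA proteins sorts cargo at the trans-Golgi network. In beta cells this route carries proinsulin to the site where secretory granules form. When the endoplasmic reticulum is loaded with unfolded protein, the sensors IRE1 (gene Ern1) and ATF6 act through the transcription factors XBP1 and cleaved ATF6 on genes of folding and transport.

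Median log2 values of the 6 arrays ran from 5.39 to 5.49. Control arrays correlated at r between 0.981 and 0.991 over probe sets, the arrays labelled knockout between 0.991 and 0.993, and pairs across groups between 0.978 and 0.987. The targeted gene was not lower where the label says deleted: Ppard read 7.75, 7.56 and 7.12 (controls 1 to 3) against 8.01, 8.20 and 7.70 (labelled knockout 1 to 3), a difference of 0.49 ± 0.20 (SE, adjusted p = 0.377). Ppard has 2 single-symbol probe sets, and only the brighter one is given here. Which exon was removed is not given in the sources used here, so this probe set may lie outside it and is then no check of the genotype. The 8 measured beta cell markers were bright, at percentile 94.2 or above of all probe sets. Of these, 6 had lower means in the arrays labelled knockout, and Slc30a8, the granule zinc transporter, passed (-0.82, adjusted p = 0.0394). Over all genes 50.4% had higher means there, and 0.247% passed in the lower direction.

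Differences in these 59 genes were small, and none passed the test. Values are log2 expression, a difference is labelled knockout minus control with limma's moderated standard error (SE), and a call needs an adjusted p under 0.05 over all 45037 probe sets. At that threshold 0 of 59 genes were called, against 1.1% of all genes (0.852% higher and 0.247% lower). At an unadjusted p under 0.05, 8 genes (13.6%) were higher against 8.37% of all genes, and 0 were lower against 5.58%. The 8 were Arfgap3, Copz1, Sec23b, Tmed10, Bet1, Uso1, Golga1 and Gga3. With a spread that follows expression level and is robust to outlying genes (limma's trend and robust options), 2 genes passed, Sec23b at adjusted p = 0.0294 and Arfgap3 at adjusted p = 0.0399, where 2.73% of all genes were called (3.39% of the 59). Under the same options 14 genes (23.7%) were higher at an unadjusted p under 0.05, against 9.75% of all genes.

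The set leaned upwards. Of the 59 genes, 44 (74.6%) had a higher mean in the arrays labelled knockout, against 50.4% of all genes, and the median difference was 0.073 against 0.0020 over all genes. Differences ran from -0.30 (Tmed2) to 0.47 (Arfgap3). The groups did not overlap, with knockout higher, for 20 genes (33.9%, against 12.1% of all genes) and, with knockout lower, for Sec23a and Ap1m1 (3.39%, against 9.06%). These genes are bright, between percentile 60.2 and 99.5 of all probe sets, and vary little, with a median SD among controls of 0.098 against 0.163 over all genes. The lean depended in part on scaling. After a further quantile normalization 37 genes were higher (50.9% of all genes were), and 15 were higher and 5 lower without overlap, against 11.7% and 10.1% of all genes. After median centring 49 were higher, but so were 61.1% of all genes, whose median moved to 0.055. There 20 were higher and 0 lower without overlap, against 15.7% and 5.47% of all genes.

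The arrays could bound most of these differences. For 48 of 59 genes the 95% interval of the difference lay inside a 1.5-fold change in either direction, and for 59 of 59 it lay inside a 2-fold change. Among all genes 11790 of 18193 met the first bound. At the genes' median SE of 0.11, a call needed a difference of about 0.71, or 1.63-fold.

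**Figure D1:**
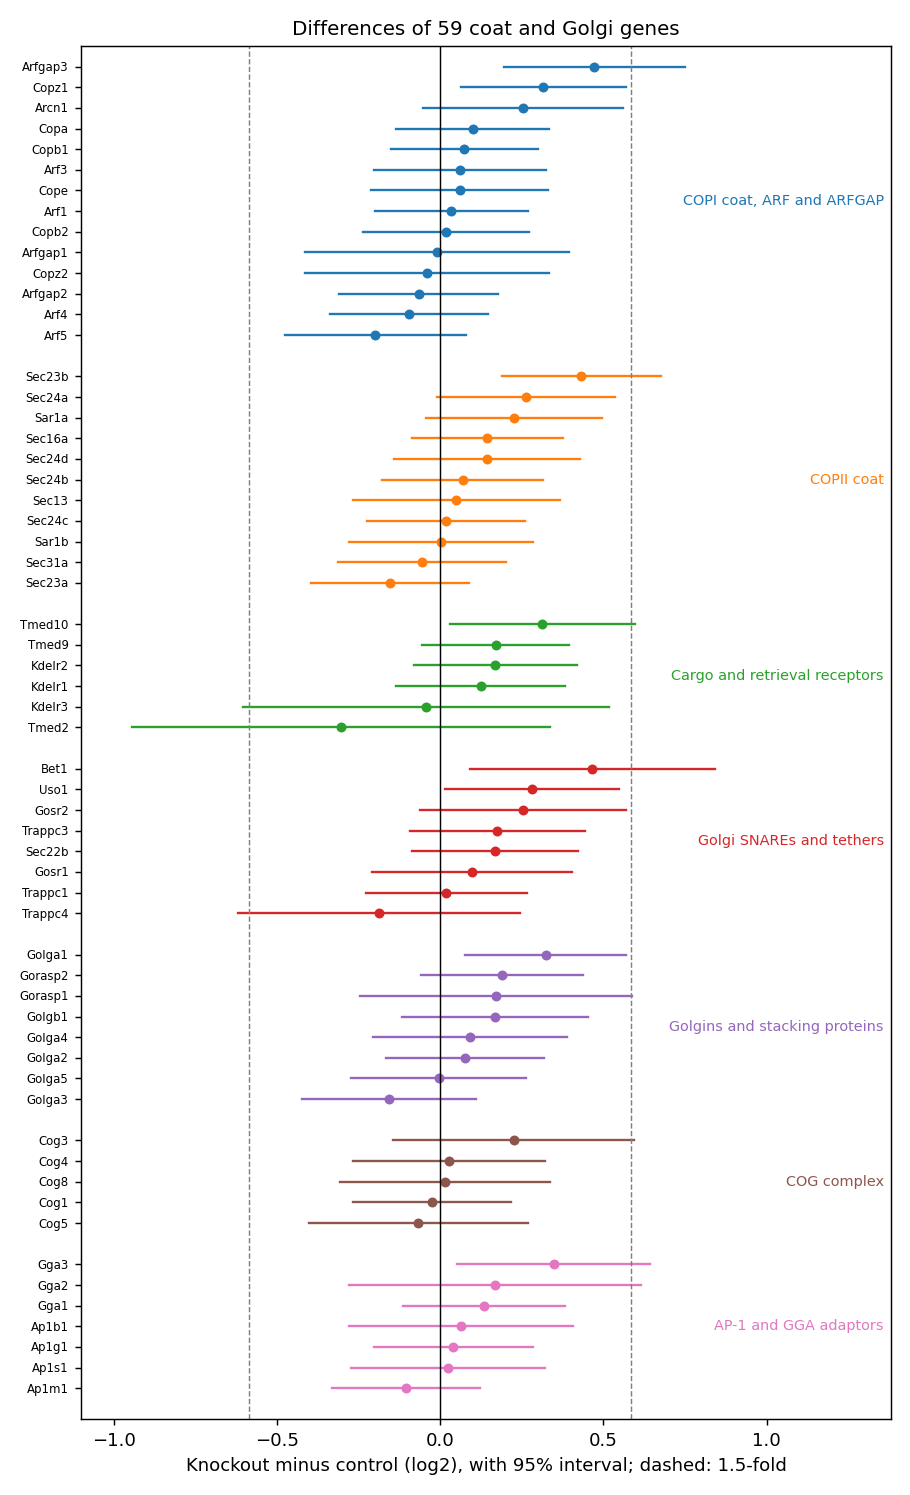
Labelled knockout minus control difference (log2, x axis) of each of the 59 genes with its 95% interval, coloured by group; dashed lines mark a 1.5-fold change. Points run from -0.30 for Tmed2 to 0.47 for Arfgap3, and 44 of 59 lie above 0.

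Promoter stretches with a known element of the unfolded protein response are shown because the results below read that response's regulators beside these genes. RefSeq promoters of build GRCm38.p6, 250 bases before to 50 bases after a transcript start, were matched for 51 of the 59 genes (59 starts). Arcn1, Tmed2, Kdelr2, Trappc1, Trappc4, Golga4, Golgb1 and Ap1m1 were not matched. The unfolded protein response element (UPRE) TGACGTGG is known as a binding sequence of XBP1 and ATF6. It was found on either strand in 7 of 59 promoters (11.9%), against 0.676% of all 32851 promoters of that length. Among promoters of the other early secretory pathway genes read below it was in 3 of 66 (4.55%), so it was not particular to this set. The 7 promoters belong to 6 genes, since Arf1 has 2 overlapping starts that share the match. The stretches are given 5′ to 3′ on the gene's strand, with capitals marking the match, which reads CCACGTCA where it lies on the opposite strand.
Sec24d (chr3:123267434-123267513, + strand, match at -26 to -19 from the start): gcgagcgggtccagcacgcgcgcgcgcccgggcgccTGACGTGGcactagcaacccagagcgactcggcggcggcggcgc
Copb1 (chr7:114254665-114254744, - strand, match at -28 to -21): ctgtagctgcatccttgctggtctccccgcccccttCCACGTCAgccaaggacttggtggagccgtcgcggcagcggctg
Copb2 (chr9:98563688-98563767, + strand, match at -7 to 1): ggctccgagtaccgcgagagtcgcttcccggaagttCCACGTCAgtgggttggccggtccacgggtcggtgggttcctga
Arf1 (chr11:59228203-59228282, - strand, match at -84 to -77): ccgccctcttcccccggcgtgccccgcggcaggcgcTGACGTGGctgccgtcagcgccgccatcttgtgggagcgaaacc
Sec23a (chr12:59011968-59012047, - strand, match at 7 to 14): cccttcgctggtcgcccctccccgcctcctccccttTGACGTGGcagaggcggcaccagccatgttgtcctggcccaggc
Kdelr3 (chr15:79516342-79516421, + strand, match at -30 to -23): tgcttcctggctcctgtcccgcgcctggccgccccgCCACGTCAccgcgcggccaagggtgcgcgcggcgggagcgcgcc

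A match is a description of letters and not evidence of binding. Of the 6 genes with the element 4 had differences above 0, and the differences ran from -0.15 (Sec23a) to 0.14 (Sec24d) with a median of 0.026. The groups did not overlap for Copb1 (higher, as for 12.1% of all genes) and Sec23a (lower, as for 9.06%). Of the 6, 0 had an unadjusted p under 0.05, against 8.37% of all genes higher and 5.58% lower. A set of 6 genes is too small to be told apart from those shares. In all, 7 motifs were searched on both strands. The palindromic cyclic AMP element TGACGTCA, which shares TGACGT with the UPRE, was in 2 promoters (3.39% against 1.79%), those of Cope and Gosr2, and CACGTG was in 8 (13.6% against 7.15%). The CCAAT box was in 21 (35.6% against 37.4%). The endoplasmic reticulum stress elements ERSE and ERSE-II and the DR1 direct repeat of PPAR response elements were in 0 promoters each, against 0.119%, 0.0365% and 0.0396% of all.

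Sec23b and Arfgap3 are shown as well, picked because they had the lowest p. Their promoters hold neither the UPRE nor either of the longer stress elements. The UPRE was in only 0.676% of all promoters, so its absence sets neither gene apart. Capitals mark the CCAAT box on either strand (ATTGG where it lies on the opposite one).
Sec23b (chr2:144555979-144556278, + strand, the upstream one of its starts): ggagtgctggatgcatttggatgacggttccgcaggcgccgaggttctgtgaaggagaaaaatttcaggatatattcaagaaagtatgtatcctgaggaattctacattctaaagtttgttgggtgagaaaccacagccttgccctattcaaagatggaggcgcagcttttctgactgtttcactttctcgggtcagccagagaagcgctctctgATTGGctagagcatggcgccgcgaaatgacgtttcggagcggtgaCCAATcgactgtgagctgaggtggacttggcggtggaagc
Arfgap3 (chr15:83350198-83350497, - strand): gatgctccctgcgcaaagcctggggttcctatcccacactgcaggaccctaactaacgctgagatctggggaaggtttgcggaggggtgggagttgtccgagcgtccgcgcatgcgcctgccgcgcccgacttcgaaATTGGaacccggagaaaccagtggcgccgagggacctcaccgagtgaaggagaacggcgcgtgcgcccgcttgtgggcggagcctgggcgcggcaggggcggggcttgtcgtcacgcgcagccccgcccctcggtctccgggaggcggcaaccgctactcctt

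In the COPII coat, Sec23b had the highest difference and its paralog Sec23a the lowest. Of 11 genes 0 passed the test, 9 had higher means, and the median difference was 0.069. Sec23b and Sec23a encode the inner coat subunit that activates the GTPase SAR1. Sec23b read 9.96, 10.06 and 10.09 (controls 1 to 3) against 10.50, 10.52 and 10.39 (labelled knockout 1 to 3), the order kept for every gene that follows. Every array labelled knockout was above every control, and the difference was 0.43 ± 0.10 (SE, adjusted p = 0.145), or 1.35-fold. Sec23a stood at 9.56, 9.50 and 9.40 in controls and at 9.28, 9.37 and 9.36 in the arrays labelled knockout, so that its groups did not overlap in the opposite direction (-0.15 ± 0.10, adjusted p = 0.588). The difference between the 2 paralogs' changes was not tested.

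The SEC24 proteins are the cargo-binding subunits of the same coat. Sec24a had values of 8.02, 8.07 and 7.80 in controls and 8.26, 8.26 and 8.17 in the arrays labelled knockout, again without overlap (0.26 ± 0.12, adjusted p = 0.405). The other members of the family lay closer together. Sec24b read 9.40, 9.21 and 9.34 against 9.42, 9.34 and 9.40 (0.069 ± 0.10), Sec24c 10.32, 10.17 and 10.24 against 10.32, 10.22 and 10.23 (0.017 ± 0.10), and Sec24d 11.14, 10.91 and 10.89 against 11.01, 11.15 and 11.20 (0.14 ± 0.12). In each of these 3 the groups overlapped, and in Sec24d control 1 was above knockout 1.

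The GTPase that starts COPII assembly is encoded by Sar1a and Sar1b. Sar1a stood at 12.07, 12.00 and 11.93 in controls and at 12.22, 12.36 and 12.10 in the arrays labelled knockout, which did not overlap (0.23 ± 0.11, adjusted p = 0.472). Sar1b read 10.83, 11.11 and 10.94 against 10.97, 11.05 and 10.86, with overlapping groups and a difference of 0.0028 ± 0.12. Sec16a, which organises the exit sites, differed by 0.14 ± 0.098 with no overlap. The outer coat genes Sec13 (0.049 ± 0.13) and Sec31a (-0.056 ± 0.11) overlapped between groups.

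In the COPI group 0 of 14 genes passed, 9 had higher means and the median difference was 0.047. Among the 7 coatomer subunits 6 were higher, with a median of 0.073. Copz1, the zeta-1 subunit, stood at 9.62, 9.42 and 9.53 in controls and at 9.83, 9.90 and 9.78 in the arrays labelled knockout. The groups did not overlap, and the difference of 0.32 ± 0.11 did not pass (adjusted p = 0.288). Its paralog Copz2 read 9.56, 9.44 and 9.40 against 9.16, 9.72 and 9.40, with the highest and the lowest value both among the arrays labelled knockout (-0.041 ± 0.16). Arcn1, the delta subunit, read 10.80, 10.64 and 10.63 against 11.08, 11.01 and 10.74, and knockout 3 lay below control 1 (0.25 ± 0.13, adjusted p = 0.475). Copa (0.099 ± 0.099) and Copb1 (0.073 ± 0.095) did not overlap between groups despite small differences, while Copb2 (0.019 ± 0.11) and Cope (0.059 ± 0.11) did.

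Arfgap3 encodes a GTPase-activating protein that acts on ARF1 when COPI vesicles form and shed their coat. Values were 10.11, 10.11 and 10.15 in controls and 10.58, 10.76 and 10.45 in the arrays labelled knockout, so that the controls lay within a narrow band well below the other group. The difference was 0.47 ± 0.12 (adjusted p = 0.155), or 1.39-fold, and a dimmer second probe set of the gene differed by 0.81 ± 0.19 (adjusted p = 0.140). The other ARFGAP genes, Arfgap1 (-0.010 ± 0.17) and Arfgap2 (-0.066 ± 0.10), overlapped between groups. Of the ARF GTPases, which recruit the coat, Arf1 (0.034 ± 0.099) and Arf3 (0.061 ± 0.11) were slightly above 0 and Arf4 (-0.096 ± 0.10) and Arf5 (-0.20 ± 0.12) slightly below, all with overlapping groups.

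**Figure D2:**
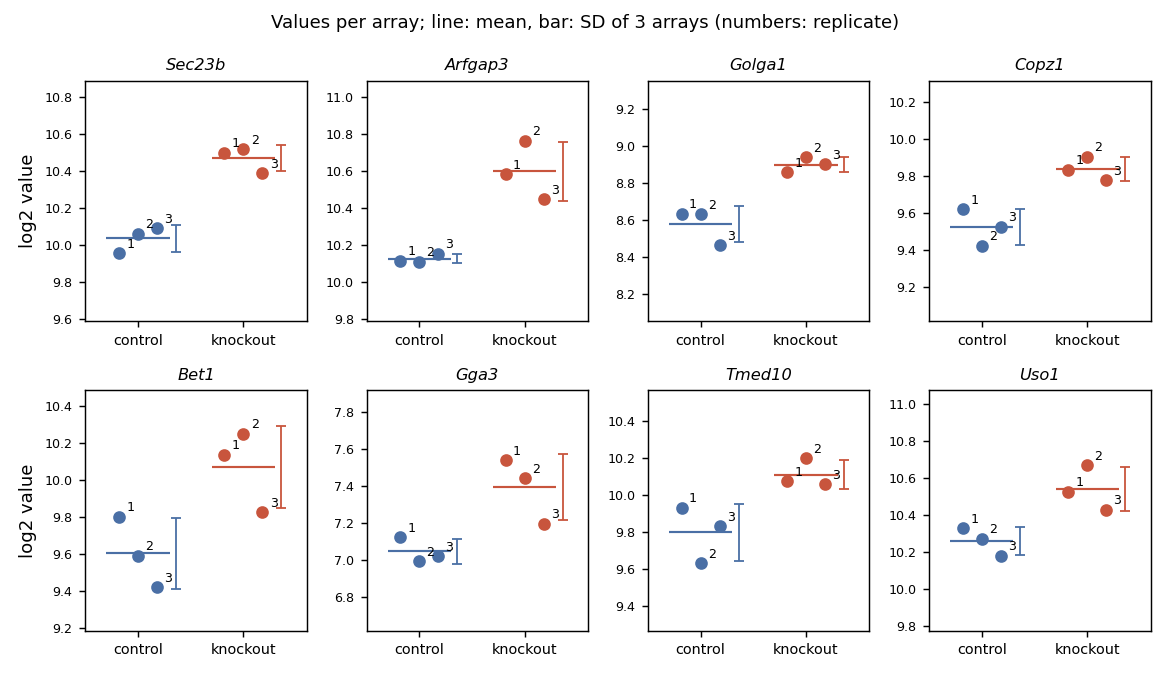
Log2 values per array (y axis, the same span in each panel) of the 8 genes with an unadjusted p under 0.05, for controls (blue) and arrays labelled knockout (red); lines are means, bars the SD of 3 arrays, and numbers the replicates. In all 8 panels the 3 red points lie above the 3 blue ones, by the least for Bet1, where knockout 3 at 9.82 is next to control 1 at 9.80.

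Of the 6 cargo and retrieval receptor genes 0 passed, 4 were higher, and the median difference was 0.15. Tmed10, a p24 family receptor of coated vesicles, stood at 9.93, 9.63 and 9.83 in controls and at 10.07, 10.20 and 10.06 in the arrays labelled knockout (0.31 ± 0.12, adjusted p = 0.343), without overlap. Its relative Tmed9 read 12.51, 12.49 and 12.48 against 12.64, 12.70 and 12.65 (0.17 ± 0.095, adjusted p = 0.516). The Tmed9 probe set is of a type that can cross-hybridise, and the gene's other probe set differed by 0.25 ± 0.10 (adjusted p = 0.361). Tmed2, read on a dim probe set, spread from 6.09 to 7.07 in controls and from 5.89 to 6.31 in the arrays labelled knockout (-0.30 ± 0.27).

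The KDEL receptors return escaped chaperones to the endoplasmic reticulum. Kdelr2 stood at 12.52, 12.45 and 12.40 in controls and at 12.61, 12.73 and 12.54 in the arrays labelled knockout, which did not overlap (0.17 ± 0.11, adjusted p = 0.559). Kdelr1 read 9.44, 9.21 and 9.29 against 9.43, 9.38 and 9.49, where control 1 was level with knockout 1 (0.12 ± 0.11). Kdelr3 read 6.87, 7.73 and 7.49 against 7.37, 7.50 and 7.08 (-0.044 ± 0.24), and its 3 controls spread more widely than the 2 groups differed. Controls 2 and 3 were the higher ones for Kdelr3, and these are the arrays with the most acinar RNA. Whether acinar RNA contributed to its values was not tested. With the acinar level as a covariate Kdelr3 differed by 0.33 ± 0.24, and against control 1 alone by 0.45 ± 0.21, neither of which passed (adjusted p = 0.745 and 0.463).

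Golgi SNAREs and tethers had a median difference of 0.17, with 7 of 8 genes higher and 0 past the test. Bet1 and Gosr2 encode SNAREs of endoplasmic reticulum to Golgi fusion. Bet1 stood at 9.80, 9.59 and 9.42 in controls and at 10.13, 10.25 and 9.82 in the arrays labelled knockout, and the groups only just failed to overlap (0.47 ± 0.16, adjusted p = 0.289). Gosr2 read 9.72, 10.02 and 10.06 against 10.06, 10.26 and 10.24, with knockout 1 next to control 3 (0.25 ± 0.13, adjusted p = 0.489). Uso1, the long tether p115, read 10.33, 10.27 and 10.18 against 10.52, 10.67 and 10.43, with every array labelled knockout higher (0.28 ± 0.11, adjusted p = 0.361). Sec22b (0.17 ± 0.11) and the TRAPP tether subunit gene Trappc3 (0.17 ± 0.11) did not overlap between groups, whereas Gosr1 (0.098 ± 0.13), Trappc1 (0.019 ± 0.10) and Trappc4 (-0.19 ± 0.18) did.

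Among golgins and stacking proteins 0 of 8 genes passed, 6 were higher and the median difference was 0.13. Golga1, the trans-Golgi golgin-97, stood at 8.64, 8.63 and 8.47 in controls and at 8.86, 8.94 and 8.90 in the arrays labelled knockout, which lay apart (0.32 ± 0.10, adjusted p = 0.267). Its dimmer probe sets differed by 0.090 and -0.22, so they did not share 1 direction. Gorasp2, the stacking protein GRASP55, read 11.01, 10.97 and 10.98 against 11.17, 11.29 and 11.07, also without overlap (0.19 ± 0.11, adjusted p = 0.516). Golga3 went the other way, at 9.60, 9.40 and 9.43 against 9.43, 9.29 and 9.25, with overlapping groups (-0.16 ± 0.11). Giantin, encoded by Golgb1, differed by 0.17 ± 0.12 with no overlap, and the dimmer probe sets of Golga3 and Golgb1 included a difference of the opposite sign. Golga2 (0.076 ± 0.10), Golga4 (0.092 ± 0.13), Golga5 (-0.0045 ± 0.11) and Gorasp1 (0.17 ± 0.18) overlapped between groups.

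The COG complex, a tether for vesicles moving within the Golgi, had a median difference of 0.015, with 3 of 5 genes higher, 0 passing and 0 without overlap. Cog3 read 8.88, 8.63 and 8.53 in controls and 8.93, 9.11 and 8.67 in the arrays labelled knockout (0.22 ± 0.16, adjusted p = 0.604). That difference was 0.15 without control 3, 0.12 without knockout 2, 0.088 with the acinar level as a covariate and 0.027 against control 1 alone. Cog5 read 6.84, 7.30 and 6.97 against 6.99, 7.01 and 6.91 (-0.067 ± 0.14), and Cog1 9.18, 9.32 and 9.15 against 9.15, 9.23 and 9.20 (-0.025 ± 0.10). In both the highest value was that of control 2. Cog4 (0.026 ± 0.12) and Cog8 (0.015 ± 0.14) overlapped as well. For 4 of the 5 genes the probe sets differed in sign (Cog1, Cog4, Cog5 and Cog8), and Cog3 has a single one.

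At the trans-Golgi network, 0 of 7 AP-1 and GGA genes passed, 6 were higher, and the median difference was 0.064. Gga3, an adaptor that binds ARF and sorts receptors, stood at 7.13, 6.99 and 7.02 in controls and at 7.54, 7.45 and 7.20 in the arrays labelled knockout, which did not overlap (0.35 ± 0.13, adjusted p = 0.320). Gga1 read 7.54, 7.36 and 7.40 against 7.52, 7.56 and 7.61, and control 1 lay above knockout 1 (0.13 ± 0.10). Ap1m1, the medium chain of AP-1, read 7.91, 7.95 and 7.88 against 7.84, 7.80 and 7.79, slightly lower without overlap (-0.11 ± 0.096, adjusted p = 0.703). Gga2 (0.17 ± 0.19), Ap1b1 (0.064 ± 0.14), Ap1g1 (0.040 ± 0.10) and Ap1s1 (0.023 ± 0.13) overlapped between groups.

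The genes did not sit at 1 level within a group of animals. Centred on each gene's mean over 6 arrays, the 59 genes had medians of -0.024, -0.065 and -0.052 (controls 1 to 3) and of 0.035, 0.12 and -0.012 (labelled knockout 1 to 3). Knockout 2 was thus the highest array, and knockout 3 lay close to control 1. Among the arrays labelled knockout, knockout 2 held the highest value for 39 of 59 genes (66.1%), against 29.8% of all genes. Among controls, control 1 held it for 35 genes (59.3%), against 43.3% of all genes. Without knockout 2, 38 genes had higher means (52.4% of all genes did), 2 (3.39%) were higher at an unadjusted p under 0.05, against 6.35% of all genes, and the golgin median was 0.051. In islets and other bulk samples, fewer cells of a type and less RNA per cell cannot be told apart.

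**Figure D3:**
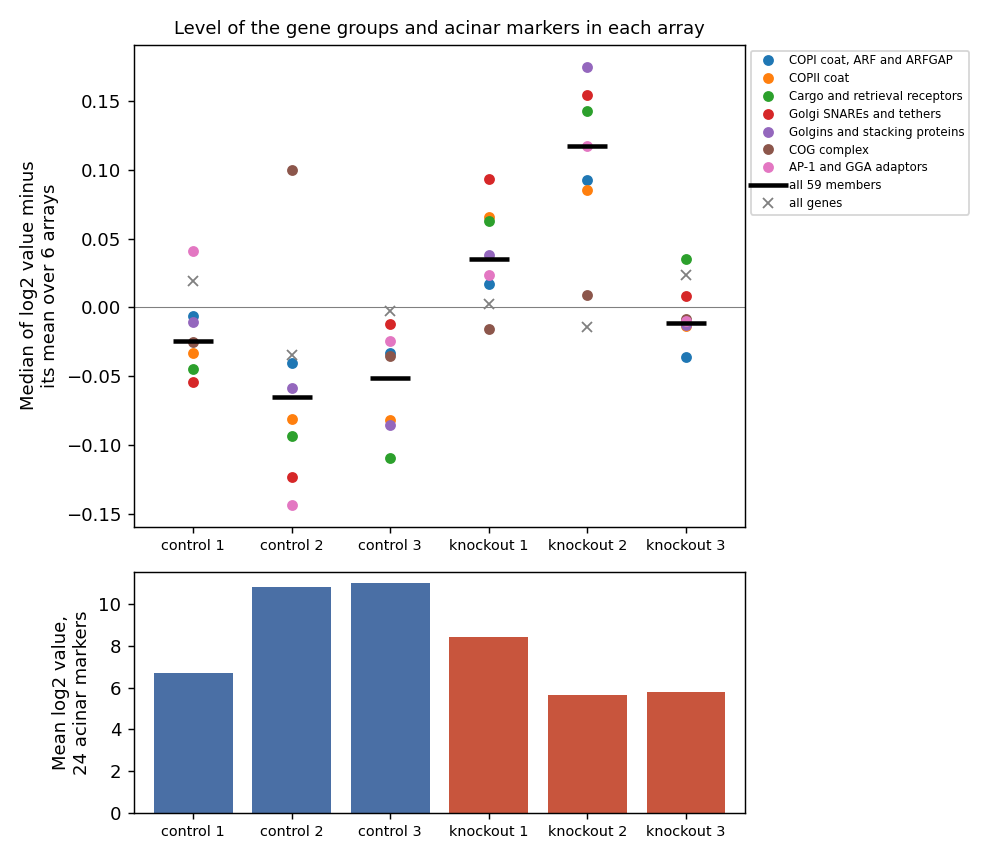
Top, for each array the median over the genes of a group of the log2 value minus that gene's mean over 6 arrays (coloured points; black bars, all 59 genes; grey crosses, all genes). Bottom, mean log2 value of 24 acinar markers per array. The 59 genes run from -0.065 in control 2 to 0.12 in knockout 2, while acinar markers are highest in controls 2 and 3, at 10.83 and 11.01.

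Levels of exocrine RNA differed between these animals and moved in part with the groups. The mean of 24 measured acinar markers (of 30 listed), the digestive enzymes and their regulators, was 6.69, 10.83 and 11.01 (controls 1 to 3) against 8.43, 5.67 and 5.78 (labelled knockout 1 to 3). Of the 24, 22 had lower means in the arrays labelled knockout and 0 passed. The other 2 had higher means there, Rbpjl by 0.080 ± 0.19 (adjusted p = 0.908) and Bhlha15 by 0.65 ± 0.24 (adjusted p = 0.334). Log2 values carry no zero, and Ptf1a, which defines acinar cells, lay between 3.17 and 3.72 in control 1 and the arrays labelled knockout and at 6.89 and 6.47 in controls 2 and 3. Over all genes 50.4% had higher means there, 0.852% passed in the higher direction and 0.247% in the lower. Measured delta and PP cell markers were lower in 5 of 5 cases (2 passed) and immune markers higher in 7 of 7 (1 passed). Of the 4 measured alpha cell markers all were lower and 0 passed. Endothelial markers were higher in 7 of 7 cases and fibroblast markers in 4 of 7, with 0 past the test. Of 5 duct markers 4 were lower, and Cftr passed in the higher direction (3.92, adjusted p = 0.000937).

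Values were recomputed with that exocrine level in view. With the acinar mean as a covariate 38 of 59 genes were higher (48.3% of all genes were) and the median difference was 0.052. At an unadjusted p under 0.05, 2 genes (3.39%) were higher, against 4.996% of all genes. The 2 genes were Sec23b, at 0.50 ± 0.14 (adjusted p = 0.339), and Arfgap3, at 0.47 ± 0.17 (adjusted p = 0.444). Without the covariate the shares were 13.6% and 8.37%, and the SE of Sec23b was 0.10. Whether the shares fell through wider SEs or through acinar RNA was not tested. Against control 1 alone 39 genes were higher (47.8% of all genes were) and the median was 0.054. At an unadjusted p under 0.05, 3 genes (5.08%) were higher, the same share as of all genes (5.08%), namely Sec23b (0.51 ± 0.15, adjusted p = 0.286), Gosr2 (0.47 ± 0.16, adjusted p = 0.346) and Arfgap3 (0.48 ± 0.18, adjusted p = 0.380). Sec23b and Arfgap3 were thus as large as in the full comparison. Against control 1 alone, 12 of the 44 higher genes kept their sign but were smaller by over 1.5 times, and 10 turned lower. The smaller ones included Bet1 (0.27), Tmed10 (0.18), Arcn1 (0.14), Kdelr2 (0.10) and Gga1 (0.026). Of the 15 genes with a lower mean, 5 turned higher. That comparison takes the spread of a single control to be that of the other group. The part of the islet cell, duct and immune markers in these differences was not tested.

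Among other genes of the same route, 2 passed the test. Of 71 further early secretory pathway genes listed, 66 were measured. Of these, 51 had higher means (77.3%, against 50.4% of all genes), and the median difference was 0.14. Past the test, 2 of 66 were higher (0.852% of all genes were) and 0 lower (0.247% were). At an unadjusted p under 0.05, 9 of 66 were higher, against 8.37% of all genes, and 1 lower, against 5.58%. In the set of 59 genes, 8 were higher at that threshold. Mcfd2, which with the lectin LMAN1 forms a cargo receptor for blood clotting factors, rose from 9.36, 9.32 and 9.26 in controls to 10.45, 10.56 and 9.99 in the arrays labelled knockout, a difference of 1.02 ± 0.16 (adjusted p = 0.0495), or 2.03-fold. Its partner Lman1 differed by 0.26 (adjusted p = 0.504). Trappc2, a subunit of the TRAPP tether, rose from 7.29, 7.33 and 7.23 to 7.92, 7.93 and 7.97, a difference of 0.66 ± 0.097 (adjusted p = 0.0368), or 1.58-fold. In both genes every array labelled knockout was above every control. The call on Trappc2 was lost with any 1 array left out (adjusted p = 0.0510 to 0.158). That on Mcfd2 was kept without knockout 3 (adjusted p = 0.0266) and lost without any of the other 5 (adjusted p = 0.0633 to 0.195). With the acinar covariate Mcfd2 differed by 1.03 ± 0.23 (adjusted p = 0.242) and Trappc2 by 0.64 ± 0.14 (adjusted p = 0.225).

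Arfgef2, an exchange factor that activates ARF at the trans-Golgi, and Golph3l followed without passing. Arfgef2 stood at 8.84, 8.76 and 8.87 in controls and at 9.18, 9.26 and 9.25 in the arrays labelled knockout (0.40 ± 0.099, adjusted p = 0.155). Golph3l, a Golgi phosphoinositide-binding protein, read 10.35, 10.32 and 10.50 against 10.72, 10.74 and 10.74 (0.34 ± 0.10, adjusted p = 0.233). Neither gene overlapped between groups.

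Regulators of secretory genes were read as a further list. The UPRE was chosen as a motif after the values were seen, so it gives no independent ground for reading them. The 6 genes with that element had a median difference of 0.026. Of them 0 had an unadjusted p under 0.05, against 8.37% of all genes higher and 5.58% lower, and 6 genes are too few to compare. Whether the regulators act on these genes was not tested. Of the 11 regulators, 0 passed, 8 had higher means and the median difference was 0.070. Xbp1 stood at 10.48, 10.38 and 10.60 in controls and at 11.08, 11.31 and 10.97 in the arrays labelled knockout (0.63 ± 0.13, adjusted p = 0.0985). It passed with the trend and robust options (adjusted p = 0.0200) and as the mean of its 4 probe sets (0.72 ± 0.12, adjusted p = 0.0332). It did not pass with the acinar covariate (0.62 ± 0.18, adjusted p = 0.372) or the replicate block (adjusted p = 0.20). Nor did it pass with any 1 array left out (adjusted p = 0.11 to 0.29). Atf6 read 9.86, 9.92 and 9.96 against 10.28, 10.33 and 10.21 (0.36 ± 0.10, adjusted p = 0.200), and as the mean of its probe sets 0.50 ± 0.095 (adjusted p = 0.0464). It did not pass with the acinar covariate (0.40 ± 0.14, adjusted p = 0.436) or the replicate block (adjusted p = 0.30). With 1 array left out its adjusted p was 0.20 to 0.47. Ern1 read 10.21, 10.07 and 10.15 against 10.55, 10.70 and 10.42 (0.41 ± 0.12, adjusted p = 0.203). All 3 genes lay apart between groups. Creb3l4 was dim, at 4.73, 4.08 and 3.62 against 3.61, 3.70 and 3.75, and overlapped (-0.46 ± 0.26, adjusted p = 0.531). The array measures total Xbp1 transcript and not its spliced share.

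**Figure D4:**
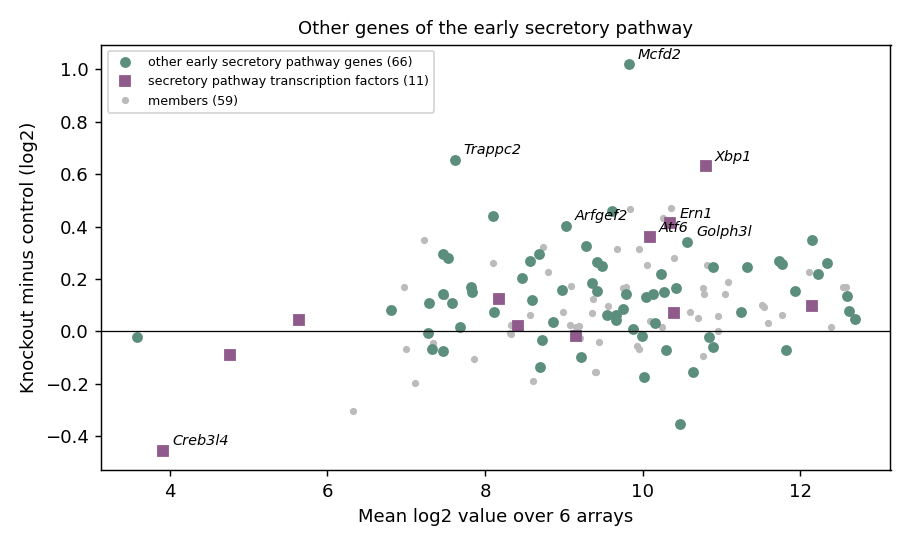
Labelled knockout minus control difference (log2, y axis) against mean log2 value over 6 arrays (x axis) for 66 other early secretory pathway genes (green), 11 regulators (purple squares) and the 59 genes (grey); the 4 genes with the smallest p of each list are named. Mcfd2 at 1.02 and Trappc2 at 0.66 stand above the 59 genes, whose highest value is 0.47.

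Probe sets of a gene gave a mixed account for part of the set. The 59 genes had 116 single-symbol probe sets, of which 0 passed the test. Of the 34 genes with several, 11 had a probe set whose difference went against that of the brightest one, namely Copa, Arf3, Arf4, Golga1, Golga3, Golgb1, Cog1, Cog4, Cog5, Cog8 and Ap1g1. Among the brightest probe sets, 3 were of the cross-hybridising type (Tmed9, Cog1 and Cog8) and 3 of the type shared by several transcripts (Sec16a, Cog4 and Gga1).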

How the data were processed

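Islet RNA from 6 mice was measured on 1-colour Affymetrix arrays. The deposited log2 values per probe set were made by the authors with RMA, which corrects background, normalizes quantiles and summarises probes, per the submitters' processing notes; version, genome build and scanner data were not used here. Of 45101 probe sets, 64 manufacturer controls were left out; 34945 of the remaining 45037 had a single gene symbol in the platform annotation, 932 several and 9160 none. Names matched RefSeq (GRCm38.p6) by gene identifier for 59 of 59 genes.

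The test was limma's (version 3.58.1, R 4.3.3), with lmFit and then eBayes on a design with 1 term for group. It was two-sided, with Benjamini-Hochberg over all 45037 probe sets. It was tried on simulated data in which probe sets drawn from all of these were changed. There it called 7 of 335 changes of 1.5-fold (2.09%), 135 of 335 of 2-fold (40.3%) and 262 of 330 of 4-fold (79.4%). Most changes of 1.5-fold were thus missed. With 3 arrays per group, their number limits the precision. The genes, lists, tests and alternatives were chosen with earlier results of these data known. Promoter motifs were chosen after the values were seen. Per-array values are printed for the 3 lowest p-values in each of the 7 groups, for paralog sets, and for the 4 lowest in either further list. Lman1, Ptf1a, Rbpjl, Bhlha15, Slc30a8 and Cftr fall outside that rule and were picked after their values were seen. Alternatives were leaving out arrays, a replicate block, an acinar covariate, quantile normalization, median centring, a log2 floor of 5, averaged probe sets, and the trend and robust options.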

Additional observations from a re-analysis of the deposited data

How the results depend on the processing

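In 14 alternatives the count of the 59 genes past the threshold was 0 except with the trend and robust options, where it was 2. Genes higher at an unadjusted p under 0.05 numbered 2 with the acinar covariate (3.39%, against 4.996% of all genes), 3 without controls 2 and 3 together (5.08%, against 5.08%), 14 with trend and robust (23.7%, against 9.75%), and 2 to 8 with 1 array left out (3.39% to 13.6%, against 6.24% to 10.3%); none was lower in any of these. Calls over all genes (200) were 123 with the replicate block, 33 without controls 2 and 3, 65 with the acinar covariate, 398 with averaged probe sets, 496 with trend and robust, and 77 to 335 with 1 array left out. Same-numbered arrays' deviations correlated at -0.054, 0.14 and 0.0045, and those of arrays with unlike numbers at -0.13 to 0.10. Whether replicate numbers pair the animals cannot be told from these values. With the replicate block the calls on Trappc2 and Mcfd2 were lost (adjusted p = 0.118 and 0.0784), and after quantile normalization that on Trappc2 (adjusted p = 0.0525). The order of the group medians, and that of Arfgap3, Bet1 and Sec23b, changed between alternatives. Group medians stayed above 0 in all alternatives except for the COG complex. It was 0.077 with the acinar covariate, -0.040 after quantile normalization and 0.069 after centring. The COPII median was 0.022 and 0.12 after those 2 scalings. With 1 array left out, medians were 0.0076 to 0.069 (COPI), 0.081 to 0.11 (COPII), 0.13 to 0.18 (receptors), 0.12 to 0.21 (SNAREs and tethers), 0.051 to 0.19 (golgins), -0.044 to 0.065 (COG) and 0.031 to 0.18 (AP-1 and GGA).

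Of the 59 genes, 15 changed sign without controls 2 and 3 and 12 with the acinar covariate. Gga2 went from 0.17 to -0.20 and -0.070, Ap1b1 from 0.064 to -0.16 and -0.14, Golga4 from 0.092 to -0.089 and -0.062, and Arf3 from 0.061 to -0.084 and -0.058. Trappc4 went from -0.19 to 0.12 without controls 2 and 3. In that setting Cog5 was at 0.13, Cog1 at 0.012, Sec24b at -0.012, Sec24c at -0.059, Sec24d at -0.015, Kdelr1 at -0.0022 and Kdelr3 at 0.45. With the acinar covariate Cog5 was at 0.077, Sec24c at -0.0061, Sec24d at -0.024 and Kdelr3 at 0.33. Quantile normalization gave -0.034 for Sec24c and -0.026 for Sar1b. Centring gave 0.028 for Cog1, 0.013 for Copz2 and 0.0093 for Kdelr3, and averaging probe sets 0.032 for Cog1. With 1 array left out, values ran from -0.062 to 0.077 for Sar1b, -0.19 to 0.092 for Copz2, -0.17 to 0.065 for Cog5, -0.057 to 0.026 for Cog1, -0.019 to 0.055 for Sec24c and -0.29 to 0.14 for Kdelr3. The cause was not tested. No probe-level signal over background was available to bound dim probe sets.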
